A study of Mus musculus with 6 samples.

Results

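The genes described here are the 4 opioid receptors and the 4 precursors of opioid peptides, taken by symbol from the read counts of 32531 named genes: Oprm1, Oprd1, Oprk1, Oprl1, Pdyn, Penk, Pnoc and Pomc. All 8 had a row in each library and passed the filter on low counts. The mice were adults of a line labelled Cbln1-EGFP/Rpl10a (NIDA030), made for translating ribosome affinity purification (TRAP), in which a ribosomal protein fused to a green fluorescent protein allows ribosomes of the tagged cells to be pulled out of a homogenate. From untreated thalamus of this line there were 3 immunopurified libraries (IP) and 3 libraries labelled Input, and both groups therefore carry the transgene. The labels give the RNA of both groups as bound to ribosomes. The labels give no animal for a replicate and do not say which cells hold the tag beyond the name of the line. The deposited names of the counts point to the parafascicular nucleus, a nucleus of the medial thalamus, where the labels say thalamus.

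Opioid receptors are G-protein-coupled receptors that act through inhibitory G proteins: they open inwardly rectifying potassium channels, hold back voltage-gated calcium channels and lower cyclic AMP. Their ligands are cut from larger precursors in dense-core vesicles by prohormone convertases, mostly at pairs of basic residues. Dynorphins from Pdyn favour the kappa receptor (Oprk1), enkephalins from Penk the delta (Oprd1) and mu (Oprm1) receptors, beta-endorphin from Pomc the mu receptor, and nociceptin from Pnoc its own receptor (Oprl1). In the medial thalamus this system is known for its part in pain and in the action of opioid drugs.

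The coding sequences show what each precursor RNA can deliver, and a few stretches are given here because the precursors went in opposite directions. In the GENCODE M21 transcripts (mm10), Pdyn codes for 3 copies of the opioid core Tyr-Gly-Gly-Phe, each followed by Leu, and Penk for 7 copies, 6 followed by Met and 1 by Leu. Pomc codes for 1 copy, followed by Met, and Pnoc for 1 copy of the related core Phe-Gly-Gly-Phe, followed by Thr. Each of these cores comes after a pair of basic codons (Lys or Arg). A basic pair also follows the 5 residues in 3 of 3 copies in Pdyn and 5 of 7 in Penk, but not in Pomc or Pnoc. Each line gives 27 coding bases, 5′ to 3′ on the strand of the gene, with the 5 codons of the core and the next residue in capitals.
Pdyn core 1, chr2:129688232-129688258, minus strand: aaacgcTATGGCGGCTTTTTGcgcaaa
Pdyn core 2, chr2:129688124-129688150, minus strand: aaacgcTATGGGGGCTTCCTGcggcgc
Pdyn core 3, chr2:129688067-129688093, minus strand: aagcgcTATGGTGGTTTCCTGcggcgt
Penk core 3, chr4:4134220-4134246, minus strand: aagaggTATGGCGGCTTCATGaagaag
Penk core 6, chr4:4133935-4133961, minus strand: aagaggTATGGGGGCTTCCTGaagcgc
Pnoc core 1, chr14:65404872-65404898, minus strand: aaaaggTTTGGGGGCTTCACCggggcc
Pomc core 1, chr12:3960367-3960393, plus strand: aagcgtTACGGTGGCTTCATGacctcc

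Assigned counts ran from 23929070 to 57385828 a library. Levels are in CPM, the count relative to a library total scaled by the trimmed mean of M-values. Cbln1, whose name the line carries, was at 1361 to 1496 CPM in IP and 68.9 to 87.2 CPM in Input. Rpl10a, the ribosomal protein gene used for the tag, averaged 5.12 CPM in IP against 4.88 for Input and was not called (adjusted p = 0.857), and the thalamic transcription factor gene Tcf7l2 was at 1016 to 1228 CPM in Input. Replicate 1 stood apart in several marker genes of choroid plexus and hypothalamus. The choroid plexus gene Ttr had 71 counts in Input replicate 1 against 24784 and 28317 in the other Input libraries, with 0 against 1861 and 1490 in IP, and Kl had 47 against 749 and 640, with 0 against 172 and 77 in IP. The hypothalamic peptide gene Pmch had 993 counts in IP replicate 1 against 5 and 0, and 166 in Input replicate 1 against 35 and 18. Another, Hcrt, had 336 counts in Input replicate 1 against 6 and 5. Microglial genes went different ways in IP. Ctss had 77 counts in IP replicate 1 against 1 and 4, and Tmem119 had 20 against 6 and 4. Csf1r had 9 against 50 and 153, C1qa 1 against 55 and 83, and Cx3cr1 9 against 22 and 11. Given these differences, results of Penk, Pomc, Oprd1, Oprk1 and Oprl1 are also given without replicate 1. Single values of other genes are from all 6 libraries unless stated, and some of them also move without it.

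The 8 genes split in the pull-down. Pdyn was 9.67-fold and Oprl1 1.61-fold higher in IP than in Input, while Penk, Pnoc, Oprm1 and Oprd1 were lower by between 4.38-fold (Oprm1) and 18.1-fold (Pnoc). Oprk1 and Pomc did not pass the test. A gene was called at an adjusted p under 0.05 in edgeR's quasi-likelihood test over 16898 genes. Thus 2 of 8 were called higher, where 23.3% of all genes tested were, and 4 of 8 lower, where 24.3% of all genes were. Groups were free of overlap in 7 of 8, and in 61.6% of all genes. The median log2 fold change (IP over Input) was -1.72 over the 8 genes and -0.07 over all genes tested. Over all genes 3930 were called higher and 4100 lower, a balance that went to 2887 and 4981 under upper-quartile scaling and to 2458 and 5240 under library totals. The calls of the 6 opioid genes named above held under both scalings.

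**Figure D1:**
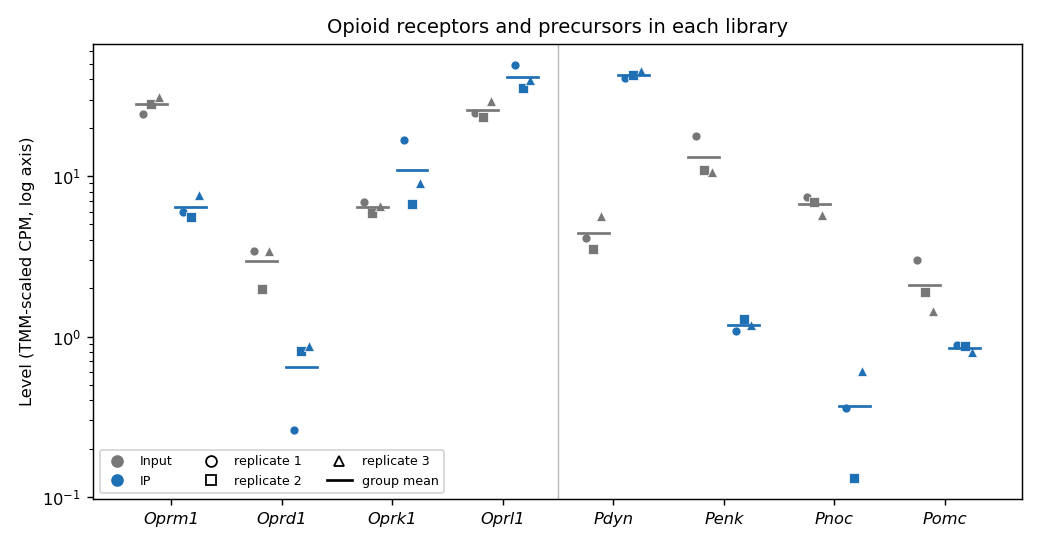
Level of each gene in each library, as CPM on a log axis, with Input in grey, IP in blue, a marker shape for each replicate number and a bar at the group mean. Pdyn lies between 40.8 and 45.01 CPM in IP and between 3.504 and 5.65 CPM in Input, whereas Penk and Pnoc lie lower in every IP library than in any Input library.

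Pdyn, the dynorphin precursor gene (chromosome 2, 129686565 to 129699844, minus strand, mm10), was at 40.8, 42.8 and 45.01 CPM in IP replicates 1 to 3 and at 4.11, 3.504 and 5.65 CPM in Input. The 3 IP libraries lay close together and far above all 3 Input libraries. The log2 fold change was 3.27 (SE 0.20, adjusted p = 4.25e-06). A larger one was found in 0.231% of the genes tested. The replicate numbers, which also share a sequencing lane code between IP and Input, gave log2 ratios of 3.31, 3.61 and 2.99. The counts behind these values were 1913 to 2041 in IP and 105 to 295 in Input.

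Penk, the enkephalin precursor gene (chromosome 4, 4133531 to 4138819, minus strand), was at 1.08, 1.29 and 1.18 CPM in IP and 17.8, 10.9 and 10.7 CPM in Input replicates 1 to 3. Input replicate 1 was the highest, and the groups did not overlap. Penk was 11.1-fold lower in IP (log2 fold change -3.47, SE 0.30, adjusted p = 2.80e-05), or -3.12 on the log2 scale without replicate 1. A non-coding gene of the opposite strand shares 233 exonic bases with Penk in the annotation, and whether the counting used strand is not given in the sources used here.

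Pnoc, the nociceptin precursor gene (chromosome 14, 65400673 to 65425472, minus strand), had the largest decrease of the 8. It was at 0.360, 0.131 and 0.612 CPM in IP, on 18, 6 and 26 counts, and at 7.40, 6.91 and 5.74 CPM in Input. The Input libraries were alike and the IP libraries varied about their low mean. The log2 fold change was -4.18 (SE 0.55, adjusted p = 3.09e-04).

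Pomc, the source of beta-endorphin and of the melanocortin peptides (chromosome 12, 3954951 to 3960642, plus strand), was scarce in both groups. It was at 0.880, 0.872 and 0.800 CPM in IP, on 34 to 44 counts, and at 2.98, 1.91 and 1.44 CPM in Input, on 75 to 99 counts. Although every IP value was below every Input value, the log2 fold change of -1.30 (SE 0.56) was not called (adjusted p = 0.0859). It was called with library totals as the scale (adjusted p = 0.0496) and by DESeq2 (adjusted p = 0.0293), and was -0.99 without replicate 1 (adjusted p = 0.282).

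Among the receptors, Oprm1, the mu receptor and main target of morphine, was at 5.98, 5.54 and 7.62 CPM in IP and 24.5, 28.3 and 31.1 CPM in Input replicates 1 to 3. Each Input library was above each IP library. The log2 fold change was -2.13 (SE 0.19, adjusted p = 3.11e-05). Within replicates 1 to 3 it was -2.03, -2.35 and -2.02. Oprm1 spans chromosome 10 from 6758506 to 7038198 on the plus strand. There it overlaps Ipcef1 of the opposite strand in 96 exonic bases. Ipcef1 had 15 to 118 counts in IP and 182 to 482 in Input, against 254 to 324 and 626 to 1623 for Oprm1. Whether reads from the shared bases were counted for either gene was not tested.

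Oprd1, the delta receptor (chromosome 4, 132110726 to 132144486, minus strand), was lower as well, on few reads. It was at 0.260, 0.806 and 0.871 CPM in IP, on 13, 37 and 37 counts, and at 3.41, 1.98 and 3.43 CPM in Input. The groups did not overlap, although IP replicate 1 and Input replicate 2 were low within theirs. The log2 fold change was -2.18 (SE 0.63, adjusted p = 0.0178). The call was lost without Input replicate 1 (adjusted p = 0.0791) or 3 (adjusted p = 0.0862) and without both libraries of replicate number 1 (adjusted p = 0.0698) or 3 (adjusted p = 0.0842), and the log2 fold change then lay between -2.32 and -1.68.

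Oprk1, the kappa receptor and main receptor for dynorphins (chromosome 1, 5588466 to 5606131, plus strand), varied among the IP libraries. It was at 16.7, 6.71 and 9.08 CPM in IP and 6.86, 5.85 and 6.54 CPM in Input replicates 1 to 3. Input was even, IP replicate 1 was high, and IP replicate 2 lay within the Input range. The log2 fold change of 0.76 (SE 0.33) was not called (adjusted p = 0.0841). It was 0.31 without IP replicate 1 (adjusted p = 0.296) and 0.36 without both libraries of replicate number 1 (adjusted p = 0.340). Without IP replicate 2 it was 1.02 and was called (adjusted p = 0.0166).

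Oprl1, the nociceptin receptor (chromosome 2, 181715016 to 181720985, plus strand), was at 49.5, 35.3 and 39.4 CPM in IP and 24.6, 23.5 and 29.2 CPM in Input. The lowest IP library was above the highest Input library. The log2 fold change was 0.68 (SE 0.16, adjusted p = 0.00650), and 0.44 under library totals (adjusted p = 0.0405). Without both libraries of replicate number 1 it was 0.51 (adjusted p = 0.0455). The change in Oprl1 was thus small beside that of Pdyn and opposite in sign to that of Pnoc, the precursor of its ligand.

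**Figure D2:**
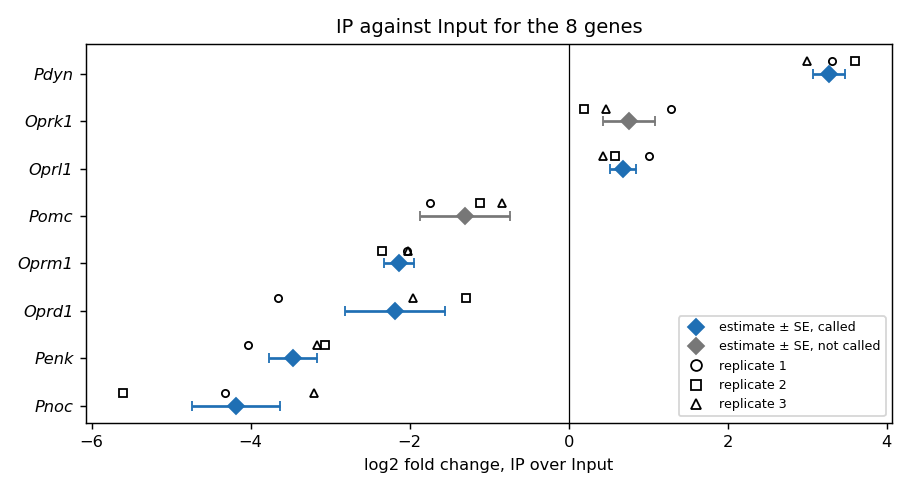
Log2 fold change of IP over Input for each of the 8 genes, ordered by size. Diamonds with bars are edgeR estimates ± SE, blue where called and grey where not, and open symbols are the log2 ratios of the 3 replicate numbers. Estimates run from -4.18 for Pnoc to 3.27 for Pdyn.

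Ratios between 2 of these genes within a library need no scaling between libraries. The Pdyn to Penk log2 ratio was 5.23, 5.05 and 5.24 in IP and -2.11, -1.63 and -0.92 in Input replicates 1 to 3. Pdyn reads thus outnumbered Penk reads in each IP library and were fewer in each Input library, a difference of 6.72 (SE 0.35) on the log2 scale. Against Pnoc and Pomc the differences were 7.68 (SE 0.68) and 4.54 (SE 0.46). The ratio of Pdyn to Oprk1, ligand precursor to receptor, was higher in IP by 2.65 (SE 0.45). Among the receptors, the ratio of Oprm1 to Oprl1 fell by 2.81 (SE 0.21) and that of Oprm1 to Oprk1 by 2.79 (SE 0.43), from Input to IP. For these 6 pairs the groups did not overlap, and the exact two-sided permutation p was 0.1, the smallest that 3 against 3 libraries allow (0.117 after adjustment over the 7 pairs compared). Each of these pairs holds Pdyn or Oprm1, whose changes are given above. Among single genes tested 61.6% were free of overlap, and the share over other gene pairs was not taken. The ratio of Oprm1 to Oprd1 differed by 0.17 (SE 0.60, exact permutation p = 0.9), and its range in IP (2.76 to 4.47) overlapped that in Input (2.84 to 3.83).

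Levels of different genes were compared per kilobase of exonic length. In IP, Pdyn was highest at 14.9 ± 0.724 CPM per kb (SD, n = 3), followed by Oprl1 at 11.03 ± 1.94. The others followed at a distance, from Oprk1 (1.19 ± 0.573), Oprm1 (0.794 ± 0.137), Penk (0.723 ± 0.0629) and Pomc (0.646 ± 0.0335) to Pnoc (0.170 ± 0.112) and Oprd1 (0.161 ± 0.0834). Ranges of neighbours in that order overlapped from Oprk1 to Pomc and between Pnoc and Oprd1, and the other neighbours were separate.

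In Input the order was another one. Penk (8.02 ± 2.48 CPM per kb) and Oprl1 (6.87 ± 0.813) came first with overlapping ranges, then Oprm1 (3.48 ± 0.408) and Pnoc (3.10 ± 0.396), which also overlapped. Pomc (1.60 ± 0.600) and Pdyn (1.53 ± 0.382) overlapped each other, as did Oprd1 (0.731 ± 0.206) and Oprk1 (0.701 ± 0.0560) at the low end. The place of Oprm1 rests on the length used: its many transcripts cover 8037 bases together but the longest is 2420 bases, and with the longest transcript it came first in Input, at 11.5 CPM per kb. In IP it was then at 2.64 CPM per kb, above Oprk1 at 2.32, while Pomc and Penk, both at 0.82, also changed places. The low end of Input changed as well. With the longest transcript Oprk1 was at 1.37 CPM per kb (range 1.25 to 1.47), above Oprd1 at 0.731 (0.493 to 0.852) without overlap.

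As a share of the summed level per kb of the 4 precursors, Pdyn made up 90.4, 90.8 and 90.6% in IP replicates 1 to 3 and 7.92, 9.70 and 15.97% in Input. Penk went from 55.7 ± 4.17% in Input to 4.41 ± 0.353% in IP, and Pnoc from 22.1 ± 3.29% to 1.03 ± 0.640% (SD, n = 3). Dynorphin precursor RNA thus made up most of the opioid precursor signal in IP and a small part of it in Input. Among the receptors Oprl1 led in both, with 58.3 ± 0.818% in Input and 83.9 ± 1.25% in IP, while Oprm1 went from 29.6 ± 2.54% to 6.15 ± 1.40%. With the longest transcript as length, Oprm1 held 52.6 ± 2.98% of the receptor level in Input and 14.5 ± 3.16% in IP, and Oprl1 37.8 ± 1.56% and 72.4 ± 1.91%.

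**Figure D3:**
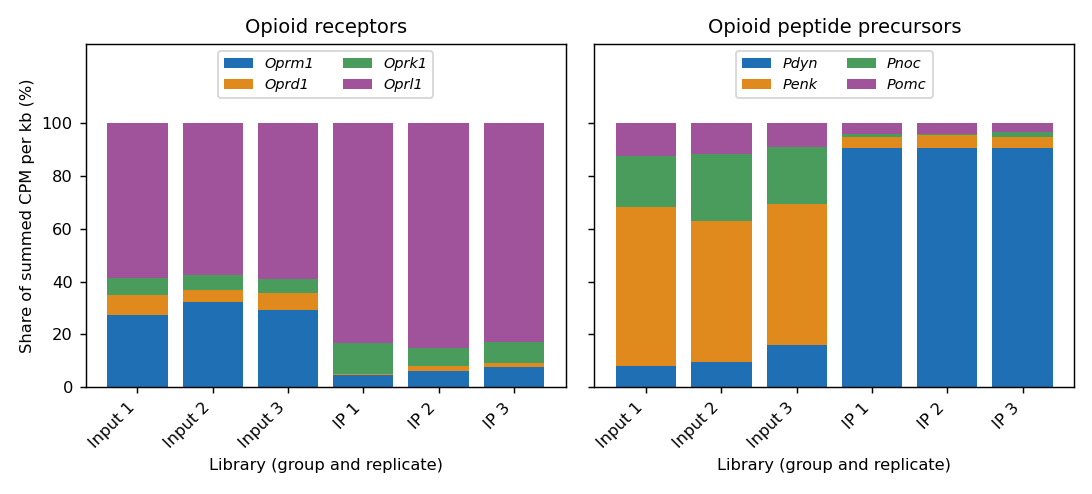
Share of the summed CPM per kb of exonic length that each gene took in each library, in percent, for the receptors (left) and the precursors (right). Pdyn fills over 90% of the precursor bar in each IP library, and Penk is the largest part in each Input library.

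Markers of other cells that could hold these RNAs moved in the same comparison. In a bulk pull-down, fewer cells of a type and less RNA per cell cannot be told apart. The counts of called markers stand against 23.3% of all genes tested called higher and 24.3% lower. Of 7 markers of GABAergic and reticular nucleus neurons 6 were called lower, and their summed level was 127 to 142 CPM in IP and 701 to 945 CPM in Input. All 9 habenula markers were called lower, at 28.9 to 55.7 CPM in IP and 115 to 167 CPM in Input. Of 7 hypothalamic peptide markers 5 were tested and 2 called lower (8.54 to 34.8 and 59.8 to 95.0 CPM), and of 6 striatal markers 4 were tested and 2 called lower (24.6 to 33.2 and 43.3 to 48.8 CPM). The hypothalamic genes Avp and Oxt were not tested, with 0 counts in each IP library and at most 1 and 5 counts in an Input library. Oligodendrocyte markers, all 6 called lower, went from between 3187 and 3690 CPM in Input to between 259 and 320 CPM in IP. The 6 astrocyte markers (17.7 to 19.1 CPM in IP and 188 to 198 CPM in Input) were also all called lower, as were 4 of 5 for microglia (2.32 to 6.0 and 27.9 to 33.06 CPM), 3 of 4 for endothelial cells (10.6 to 19.3 and 30.6 to 31.3 CPM) and 2 of 5 for choroid plexus and ependyma (5.54 to 49.2 and 23.97 to 586 CPM). The decreases of Penk, Pnoc, Oprm1 and Oprd1 therefore ran beside those of several other cell types, and the part of those cells in them was not tested. Of the 7 markers of glutamatergic thalamic neurons, 4 were called higher and 0 lower, with a summed level of 3481 to 4116 CPM in IP and 1962 to 2277 CPM in Input.

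The other genes of opioid signalling were taken from 5 lists with 54 genes and had a median log2 fold change of 0.14. Of these, 18 were called higher and 8 lower, where 23.3% and 24.3% of all genes tested were. The balance of these calls moved with the scaling: 14 were higher and 12 lower under upper-quartile scaling, and 13 and 13 under library totals, where the median of all genes shifted from -0.07 to -0.25 and -0.31. Among 13 genes of precursor processing and dense-core vesicles 4 were higher, 4 lower and 5 not called. Scg5, the chaperone of the convertase Pcsk2, averaged 83.7 CPM in IP against 44.8 for Input, a log2 difference of 0.90 (SE 0.12, adjusted p = 3.30e-04 in edgeR), and Pcsk2 itself from 130 to 169 CPM (0.37, adjusted p = 0.00927). The convertase Pcsk1 was at 4.30 CPM in IP and 6.71 CPM in Input and was not called (adjusted p = 0.0765). Cadps, which primes dense-core vesicles for release, was higher (0.76, SE 0.09), its relative Cadps2 lower (-1.92, SE 0.30), and the granule protein gene Chgb lower (-0.68, SE 0.13). Pcsk1 and Pcsk2 were singled out after their values were seen, since they cut the precursors.

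Of 10 genes for enzymes that break opioid peptides down, 1 was higher, 2 lower and 7 not called. By comparison, 23.3% of all genes tested were higher and 24.3% lower. Mme, neprilysin, which cleaves enkephalins, was at 65.9, 52.6 and 66.9 CPM in IP and 28.4, 25.9 and 27.2 CPM in Input. Each IP library was above each Input library (log2 fold change 1.19, SE 0.13, adjusted p = 9.23e-05). Ece1, an endothelin-converting enzyme that also cuts opioid peptides, was lower (-1.33, SE 0.23, adjusted p = 0.00128). The other decrease was in the aminopeptidase gene Anpep, on 0, 0 and 8 counts in IP and 28 to 41 in Input (adjusted p = 0.0483), a gene named after its values were seen.

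Of 18 genes for inhibitory G proteins and regulators of receptor signalling, 10 were higher, 1 lower and 7 not called. Shares over all genes tested were 23.3% higher and 24.3% lower. The median log2 fold change of the list was 0.53. Rgs19, which shortens signalling by inhibitory G proteins, had the largest log2 fold change of this list. It was at 45.9, 39.3 and 28.2 CPM in IP and 13.9, 17.2 and 18.1 CPM in Input. The change was 1.20 on the log2 scale (SE 0.20, adjusted p = 0.00105). It lies 21038 bases from Oprl1 on chromosome 2 (181688419 to 181693977), on the other strand. The receptor kinase gene Grk2, listed under its older symbol Adrbk1, rose from 74.8 to 152 CPM (1.03, SE 0.11), and Rgs9, a regulator abundant in striatum, fell from 29.8 to 14.2 CPM (-1.07, SE 0.19).

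Of 10 genes for effectors of the receptors, 3 were higher, 0 lower and 7 not called, with a median of 0.15. Beside this, 23.3% of all genes tested were higher and 24.3% lower. Kcnj5, a subunit of the G-protein-gated potassium channel, was at 40.8, 45.7 and 54.7 CPM in IP and 13.01, 13.98 and 16.3 CPM in Input. The groups did not overlap (log2 fold change 1.70, SE 0.16, adjusted p = 3.91e-05). Its partner Kcnj3 was higher too (0.75, SE 0.18, adjusted p = 0.00699), from 65.1 to 110 CPM. Without IP replicate 1 the log2 fold change of Kcnj3 was 0.51. The channel subunit genes Kcnj6 (-0.16, adjusted p = 0.541 in edgeR) and Kcnj9 (-0.18, adjusted p = 0.493) were not called. Kcnj6 and Kcnj9 were named after their values were seen. Of the 3 other binders of opioid ligands, the scavenger receptor gene Ackr3 had 7, 5 and 1 counts in IP and 44, 137 and 125 in Input, and was lower in IP (log2 scale -4.57, SE 0.81, adjusted p = 0.00159). The opioid growth factor receptor gene Ogfr (12.3 CPM in IP against 9.97 in the Input libraries, adjusted p = 0.212) was not called.

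**Figure D4:**
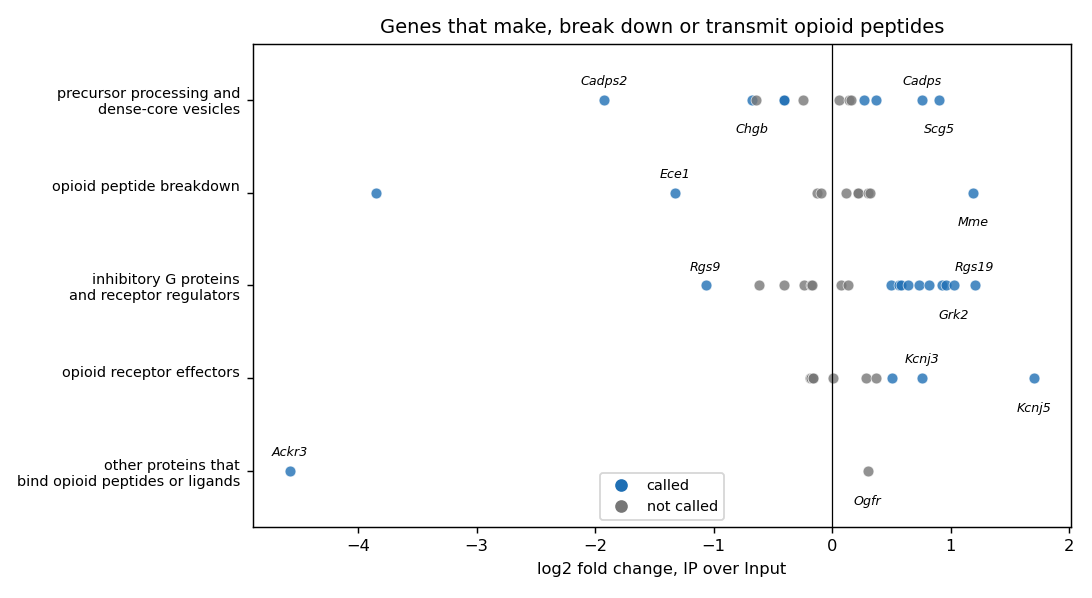
Log2 fold change of IP over Input for the other genes of opioid signalling, 1 point a gene in 5 lists, blue where called and grey where not, with 1 gene of the list of other binders not shown. Kcnj5, Rgs19 and Mme have the largest increases (1.70, 1.20 and 1.19), and Ackr3 lies at -4.57.

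Genes with profiles like those of the 8 were ranked by the root-mean-square difference of log2 CPM, each centred on its own mean, over the 6 libraries and 10783 genes that averaged 5 CPM or more. Nearest to Pdyn were Fam69c (0.13), C130060K24Rik (0.18) and the cerebellin gene Cbln4 (0.19), against a median of 1.59 over the genes ranked. Nearest to Penk were the glutathione transferase gene Gstm1 (0.22), the aspartoacylase gene Aspa (0.23) and the prostaglandin D synthase gene Ptgds (0.23), and nearest to Pnoc were Pbxip1 (0.16), AK040485 (0.25) and BC147260 (0.31). Oprm1 was most like Mdn1 (0.10), Rian (0.11) and Chka (0.11). Oprl1 was most like Asb6 (0.05), Gm14420 (0.07) and Nanos1 (0.07), and Oprk1 most like Tm2d1 (0.09), Ube2d2a (0.11) and Fut9 (0.11). The profiles share the 6 libraries and their IP and Input groups, so nearness largely follows a like change between the groups. The median was larger for members with a larger change, from 0.39 for Oprl1 to 2.37 for Pnoc, and is no measure of likeness. Some genes averaged 5 CPM only through their higher group, such as C130060K24Rik (10.7 CPM in IP, 1.22 CPM in Input) and AK040485 (0.740 CPM in IP, 11.4 CPM in Input). Oprd1 and Pomc had means under 2 CPM and were not matched.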

How the data were processed

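The authors deposited raw read counts per gene symbol. STAR 2.0.0e, HTSeq and mm10 are named in the submitters' processing notes. Strand setting, annotation and the version of HTSeq are not given in the sources used here. Lines that name no gene (53.2 to 59.8% of all lines summed) entered neither library sizes nor tests. Their make-up differed between the groups. Alignments that were not unique made up 43.2 to 49.7% of all lines in IP and 32.7 to 34.0% in Input. Ambiguous ones made up 1.32 to 1.58% and 5.47 to 6.60%, and those in no feature 8.44 to 9.39% and 14.8 to 15.9%. Rn45s held 9.38 to 14.5% of assigned counts in IP and 5.21 to 5.40% in Input.

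Groups follow the labels, and titles gave the replicate numbers. The test over all 6 libraries was that of edgeR 4.0.16 (R 4.3.3): filterByExpr (minimum count 10), TMM scaling, robust quasi-likelihood F-test, Benjamini-Hochberg adjustment over 16898 genes, threshold 0.05, without a block. CPM are TMM-scaled, and SE derive from the F statistic. Pair ratios added 0.5 to each count. Alternatives used limma 3.58.1 and DESeq2 1.42.0. They covered the scaling, the filter, the tool, the ribosomal RNA gene Rn45s, a replicate block and leaving out libraries. The test was tried on simulated data.

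IP and Input libraries of 1 replicate number share a lane code in the labels. Their deviations from the group means correlated by 0.05, 0.04 and 0.01 over genes. Replicates differed by more than sampling noise. The chi-square per degree of freedom was 11.8 to 20.8 between Input libraries and 42.1 to 134 between IP libraries. The pairs that hold IP replicate 1 were highest, at 93.1 and 134. No label says that they come from separate animals, so p-values measure the spread between these libraries, which may be technical.

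The 8 genes, the 5 pathway lists and the 10 marker lists were chosen with earlier results of these data known. Named from the lists were the 2 called genes with the largest change in each direction at a mean of at least 5 CPM, and the other binders of opioid ligands, of which 1 is not reported here. Lengths and positions came from GENCODE M21 (mm10).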

Additional observations from a re-analysis of the deposited data

How the results depend on the processing

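Over 18 alternatives, the 8 genes gave 140 log2 fold changes, of which 0 changed sign, 133 kept their side of the threshold, 4 lost the call (all Oprd1) and 3 gained one (2 for Pomc, 1 for Oprk1). With the replicate block, 2 of the 8 genes were called higher and 4 lower, as without it, and 3793 and 4038 genes in all, and no call of the 8 changed. A filter of 1 CPM in every library kept 4 of the 8 genes and so 1 called lower, since it removes genes scarce in IP by construction. Under library totals 2458 genes were called higher, and 13 pathway genes lower. Leaving out 1 library or replicate number gave 5 to 9 pathway genes lower, with 5 without Input replicate 1 or 3. The Oprm1 to Oprd1 ratio differed by between -0.34 and 0.51 without any 1 library, being -0.34 without IP replicate 1 and -0.05 without Input replicate 1. Under DESeq2, 24 genes had no adjusted p. Pnoc, Oprd1 and Pomc rested on under 50 counts in each IP library, which limits the precision of their decreases.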
